A study of Homo sapiens with 60 samples.

Results

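Glycolysis and the genes of the hypoxia response were examined in HepG2 cells, a human liver cancer line, after 24 h with water extracts of medicinal plants and plant mixtures. The 36 genes were named by symbol, in a choice made with earlier results of these data known, and matched to the Ensembl identifiers of the count table, which holds 60675 genes. They fall into 17 glycolytic enzymes, 5 glucose carriers and metabolic switches, and 14 targets of the hypoxia-inducible factors (HIF) that are not glycolytic. All 36 members passed the filter on low counts, which kept 16093 genes.

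Glycolysis splits glucose to pyruvate in the cytosol, and lactate dehydrogenase turns pyruvate to lactate. HIF is a pair of transcription factor subunits whose alpha subunit is hydroxylated by oxygen-dependent prolyl hydroxylases and then destroyed through the VHL protein. When oxygen is short the alpha subunit stays, binds the sequence ACGTG or GCGTG, and drives genes for glucose uptake, glycolysis, blood vessel growth and pH control. Liver tumour cells use this programme for growth, and many of its targets are also driven by other factors, so their RNA is not a measure of oxygen.

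Extracts of 4 plant drugs were used, Aconiti Lateralis Radix Preparata (from aconite), Bupleuri Radix, Cimicifugae Rhizoma and Citri Unshius Pericarpium (a mandarin peel), besides 3 decoctions of several drugs named Banhasasim-tang, Yijung-tang and Bojungikgi-tang. Each was given at 20, 100 and 500 µg/mL. Every dose has 3 libraries, except that Bojungikgi-tang has 1, and 3 further libraries received the vehicle, 0.1% DMSO. Sample titles give every library the same batch name and number the replicated extracts in 3 sets of 2, Cimicifugae Rhizoma with Citri Unshius Pericarpium, Aconiti Lateralis Radix Preparata with Bupleuri Radix and Banhasasim-tang with Yijung-tang, with Bojungikgi-tang and the vehicle each in a set of its own. Set and treatment therefore cannot be told apart in any comparison with vehicle, whereas 500 against 20 µg/mL lies within an extract and its set. The labels do not say whether libraries came from separate cultures, so p-values measure only the spread between libraries, which may be technical.

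Expected counts summed to 17598646 to 30451640 per library. The 10 hepatocyte markers checked, among them ALB, APOB and HNF4A, summed to 35981 to 43915 CPM, the counts scaled to library size, in every library, with a median of 41518 CPM, and none was at 0 in any library. The 10 markers of other cell types summed to 36.7 to 76.2 CPM, most of it CD68 at 31.1 to 71.1 CPM, with COL1A2 and DCN at 0 in 59 libraries each. Vehicle replicate 2 stood apart. It held 6.95 CPM of PTPRC and 5.49 CPM of CD3E, leukocyte genes that were at 0 in 56 and 57 of the 60 libraries. In it 87 genes exceeded 2 CPM that had a median under 0.1 CPM and lay under 25% of its level in every other library, and no other library had any such gene. The hexokinase gene HK3 was at 0.777 CPM and the lactate dehydrogenase gene LDHB at 1.92 CPM there, and both were at 0 in the other vehicle libraries. Counts of members that passed against vehicle are given with and without that library, and the calls on named members that ended without it are given. The share of counts from mitochondrial DNA was 9.83 to 10.8%, 14.3 to 15.1% and 17.8 to 18.3% at 20, 100 and 500 µg/mL Aconiti Lateralis Radix Preparata, 7.71 to 9.2% in vehicle and 8.43 to 12.6% in all other libraries.

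To show what stands before the start sites of members that move together, promoters were read from the RefSeq table for GRCh38.p14, 250 bases upstream of the annotated start. Capitals mark ACGTG or its reverse complement CACGT, the core of the HIF site, and the other core, GCGTG, was searched in the same way on both strands. The 4 genes below rose at 500 against 20 µg/mL in at least 4 extracts by the largest margins among members with a promoter entry, counted by their smallest change. CA9 (carbonic anhydrase 9, ENSG00000107159) lies at chr9:35673856-35681159 on the plus strand, and its window is chr9:35673678-35673927. BHLHE40 (the repressor DEC1, ENSG00000134107) lies at chr3:4979116-4985323 on the plus strand, with the window chr3:4979187-4979436. PFKP (phosphofructokinase, platelet type, ENSG00000067057) lies at chr10:3066333-3137712 on the plus strand, with the window chr10:3067720-3067969. SLC2A1 (the glucose carrier GLUT1, ENSG00000117394) lies at chr1:42925375-42959176 on the minus strand, with the window chr1:42958869-42959118. Gene spans are those of GENCODE 29 and the windows those of RefSeq, so the windows overlap the spans.
CA9: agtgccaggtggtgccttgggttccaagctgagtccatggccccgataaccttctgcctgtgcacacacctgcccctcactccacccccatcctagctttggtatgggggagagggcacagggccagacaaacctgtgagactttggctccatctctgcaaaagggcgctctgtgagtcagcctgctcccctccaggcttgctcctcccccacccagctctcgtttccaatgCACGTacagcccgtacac
BHLHE40: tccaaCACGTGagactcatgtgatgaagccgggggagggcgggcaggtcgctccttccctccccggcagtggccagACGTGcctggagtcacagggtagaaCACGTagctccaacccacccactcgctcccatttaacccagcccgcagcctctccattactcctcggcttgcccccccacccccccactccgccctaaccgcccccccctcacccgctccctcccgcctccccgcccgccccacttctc
PFKP: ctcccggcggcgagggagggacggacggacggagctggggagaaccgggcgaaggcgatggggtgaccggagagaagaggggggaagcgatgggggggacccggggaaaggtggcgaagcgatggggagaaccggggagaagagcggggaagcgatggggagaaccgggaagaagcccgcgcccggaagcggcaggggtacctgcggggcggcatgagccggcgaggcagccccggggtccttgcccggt
SLC2A1: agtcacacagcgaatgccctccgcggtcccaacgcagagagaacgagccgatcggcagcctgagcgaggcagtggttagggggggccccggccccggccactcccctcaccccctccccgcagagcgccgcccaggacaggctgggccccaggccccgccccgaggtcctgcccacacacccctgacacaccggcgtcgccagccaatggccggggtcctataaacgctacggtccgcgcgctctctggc
CA9 has 1 match close to its start and BHLHE40 has 4 matches counted on both strands, 2 of them the strands of 1 palindrome, CACGTG. PFKP and SLC2A1 have neither core in this window.

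Of the 33 members with an entry, 15 held ACGTG and 22 held either core, against 18.5% and 43.2% of all 35116 promoters of that length. By class, ACGTG stood in 8 of 17 glycolytic enzymes, in 7 of 12 HIF targets and in 0 of 4 carriers and switches. LDHA held 5 matches, LOX 4 and ALDOC and ANKRD37 3 each. At 500 against 20 µg/mL ANKRD37 did not pass the test in any extract, and HKDC1, which rose in all 6, held neither core. A match describes letters, not binding. The members were chosen as glycolytic and HIF target genes, and the 35116 promoters include genes not tested here. The shares are therefore a description, and no test of the members can be drawn from them.

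At 500 against 20 µg/mL the members split the extracts into 4 in which most of them rose and 2 in which few did. In Aconiti Lateralis Radix Preparata 32 of 36 members rose and 0 fell (edgeR quasi-likelihood test, adjusted p under 0.05 over all genes tested, n = 3 libraries per dose). In Banhasasim-tang 30 rose and 0 fell, in Bupleuri Radix 26 rose and 0 fell, and in Cimicifugae Rhizoma 23 rose and 2 fell. Citri Unshius Pericarpium gave 4 that rose and 2 that fell, and Yijung-tang gave 5 that rose and 2 that fell. In Citri Unshius Pericarpium 0 fell without replicate 2 of 20 µg/mL and 1 without replicate 1 or 3 of 500 µg/mL, and without replicate 3 of 500 µg/mL 1 member fell in Aconiti Lateralis Radix Preparata and 1 in Bupleuri Radix. The backgrounds over all 16093 genes differ widely: 19.2% rose and 18.1% fell in Aconiti Lateralis Radix Preparata, 8.59% and 6.52% in Banhasasim-tang, 9.9% and 8.89% in Bupleuri Radix and 19.5% and 19.7% in Cimicifugae Rhizoma. For the remaining extracts 0.727% rose and 0.92% fell in Citri Unshius Pericarpium, and 1.65% rose and 2.12% fell in Yijung-tang. The median log2 fold change of all genes lay between 0.0012 and 0.0033 in each of the 6 extracts. In bulk RNA, a change in the level per cell and a change in the share of cells that express a gene cannot be told apart.

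**Figure D1:**
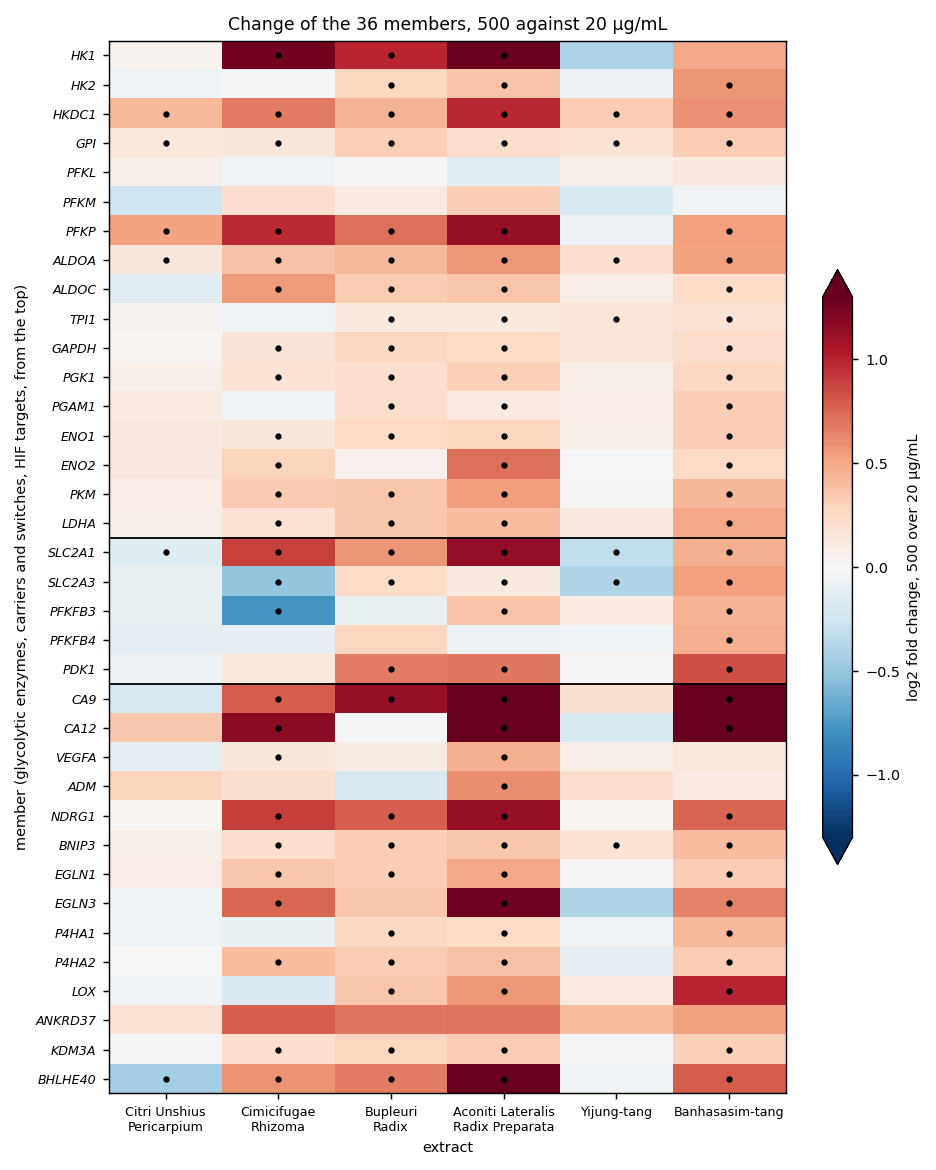
Log2 fold change of CPM at 500 over 20 µg/mL for the 36 members (rows) in the 6 replicated extracts (columns), with black dots where the adjusted p was under 0.05; colours saturate at both ends of the bar. Red dominates the Cimicifugae Rhizoma, Bupleuri Radix, Aconiti Lateralis Radix Preparata and Banhasasim-tang columns, where 23, 26, 32 and 30 members rose.

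The glucose carriers changed in opposite directions between extracts. SLC2A1, the main glucose carrier of proliferating cells, had 1298, 1315 and 1352 CPM at 500 µg/mL Aconiti Lateralis Radix Preparata, against 574, 604 and 611 CPM at 20 µg/mL, a log2 fold change of 1.14 ± 0.033 (SE; adjusted p = 2.16e-31, edgeR). In Cimicifugae Rhizoma it had 1150, 1178 and 1131 CPM at 500 µg/mL, against 607, 624 and 630.2 CPM at 20 µg/mL, a change of 0.89 ± 0.033. Every high-dose library lay far above every low-dose one, and the same held for Bupleuri Radix (0.57 ± 0.033) and Banhasasim-tang (0.46 ± 0.033). Yijung-tang went the other way, with 526, 542 and 532 CPM at 500 µg/mL, against 653, 664 and 671 CPM at 20 µg/mL (-0.32 ± 0.033, adjusted p = 1.13e-09, edgeR). In Citri Unshius Pericarpium it was also lower at the high dose, with 534, 566 and 551 CPM at 500 µg/mL, against 596, 629.9 and 614 CPM at 20 µg/mL (-0.16 ± 0.033, adjusted p = 0.00335, edgeR). None of these 6 pairs of groups overlapped. The Citri Unshius Pericarpium change missed the threshold without replicate 1 of 500 µg/mL (-0.13) or replicate 2 of 20 µg/mL (-0.14). With all 3 vehicle libraries (588, 558 and 592 CPM), SLC2A1 at 500 µg/mL Citri Unshius Pericarpium did not pass against vehicle (-0.069 ± 0.033, adjusted p = 0.127, edgeR).

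SLC2A3, the high-affinity carrier GLUT3, did not follow SLC2A1. It had 316, 329.8 and 323 CPM at 500 µg/mL Banhasasim-tang, against 222, 221 and 230.3 CPM at 20 µg/mL (0.53 ± 0.046). In Cimicifugae Rhizoma it had 194, 173 and 169 CPM at 500 µg/mL, against 244, 262 and 250.4 CPM at 20 µg/mL (-0.50 ± 0.047), so the carriers moved in opposite directions in that extract. Yijung-tang gave 168, 167 and 170.5 CPM at 500 µg/mL, against 225, 219 and 214 CPM at 20 µg/mL (-0.39 ± 0.047). It rose by less in Bupleuri Radix (0.24) and Aconiti Lateralis Radix Preparata (0.12, lost without any of 3 libraries), and the value in Citri Unshius Pericarpium was -0.096 (adjusted p = 0.437, edgeR). Reads that SLC2A3 shares with its close relative SLC2A14 may have been divided between them in the counting.

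**Figure D2:**
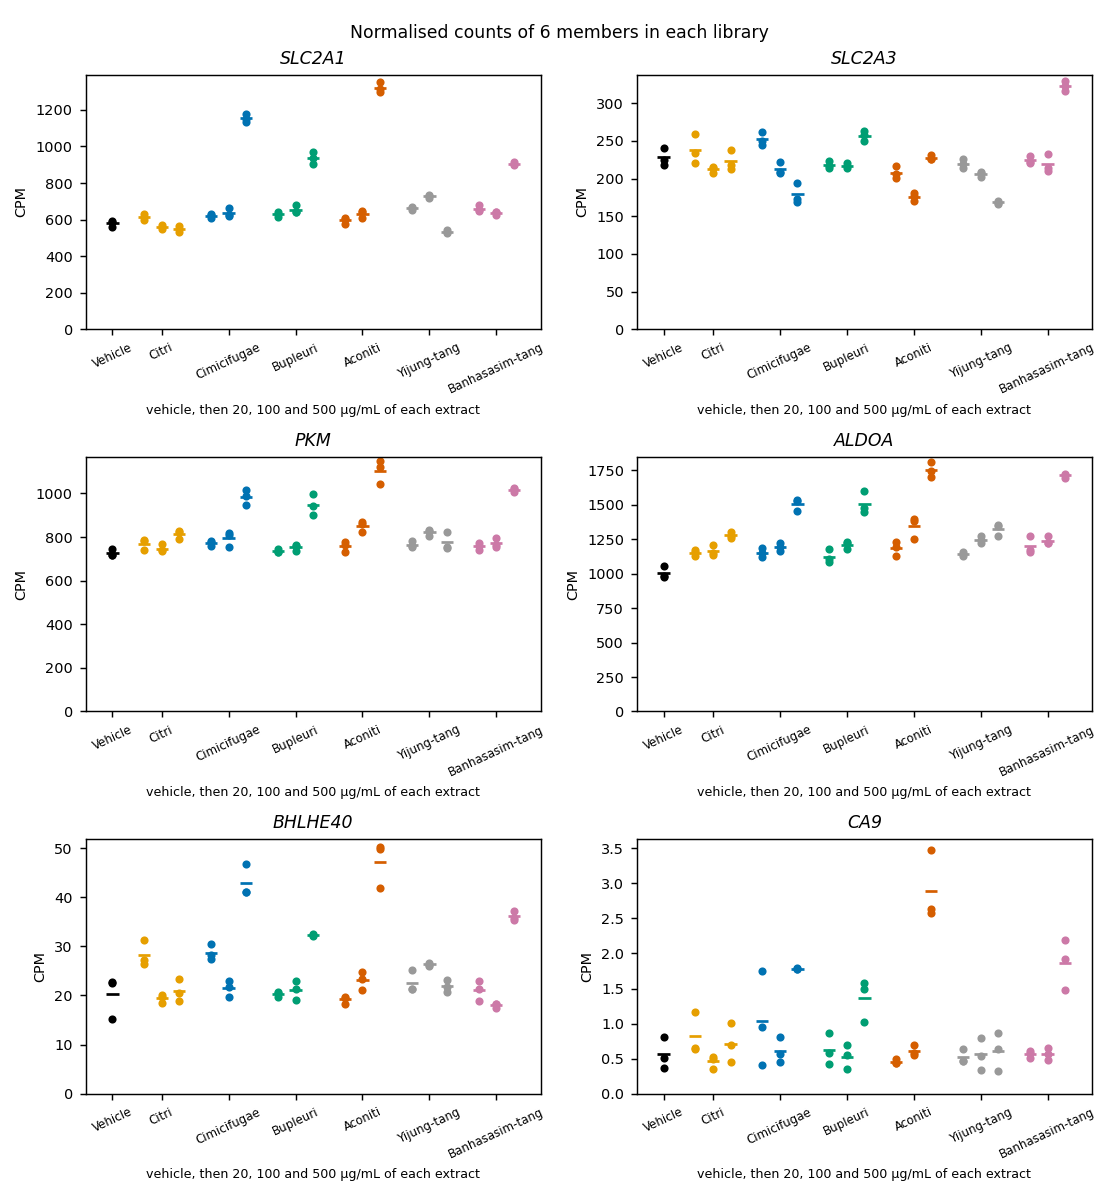
CPM (y axes, from 0) of SLC2A1, SLC2A3, PKM, ALDOA, BHLHE40 and CA9 in each library, with vehicle first and then 20, 100 and 500 µg/mL of each replicated extract; points are libraries and dashes are means of 3. SLC2A1 reached 1298 to 1352 CPM at 500 µg/mL Aconiti Lateralis Radix Preparata, whereas SLC2A3 fell to 169 to 194 CPM at 500 µg/mL Cimicifugae Rhizoma.

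The metabolic switches also differed between extracts. PFKFB3 and PFKFB4 make fructose 2,6-bisphosphate, the strongest activator of phosphofructokinase, and PDK1 shuts pyruvate out of the mitochondrial cycle by phosphorylating pyruvate dehydrogenase. PFKFB3 had 5.22, 3.55 and 4.93 CPM at 500 µg/mL Cimicifugae Rhizoma, against 5.89, 9.38 and 8.08 CPM at 20 µg/mL, a log2 fold change of -0.77 ± 0.15 (adjusted p = 5.4e-05, edgeR). In Banhasasim-tang it had 7.3, 8.19 and 8.67 CPM at 500 µg/mL, against 6.77, 5.95 and 5.16 CPM at 20 µg/mL (0.44 ± 0.14). It also rose in Aconiti Lateralis Radix Preparata (0.37 ± 0.15), so the direction depended on the extract. Both rises missed the threshold when any of 4 libraries was left out, at values of 0.33 to 0.43. PFKFB4 passed the test in Banhasasim-tang alone of the 6, with 18.3, 14.7 and 17.7 CPM at 500 µg/mL, against 11.4, 12.2 and 12.9 CPM at 20 µg/mL (0.47 ± 0.11). PDK1 had 44.9, 44.1 and 45 CPM at 500 µg/mL Banhasasim-tang, against 25.1, 22 and 28 CPM at 20 µg/mL (0.84 ± 0.066). It rose by 0.69 in Aconiti Lateralis Radix Preparata and 0.67 in Bupleuri Radix on the log2 scale. In Cimicifugae Rhizoma, where SLC2A1 rose strongly, PDK1 changed by 0.14 (adjusted p = 0.108, edgeR). PDK1 had 35.3, 35.8 and 37.5 CPM at 500 µg/mL there, against 30.7, 35.2 and 32.6 CPM at 20 µg/mL. Vehicle had 24.2, 23.5 and 27.4 CPM, so both doses lay above it, though set and treatment cannot be told apart there. At 500 against 20 µg/mL all 5 carriers and switches rose in Banhasasim-tang, 4 in Aconiti Lateralis Radix Preparata and 3 in Bupleuri Radix, against 1 risen and 2 fallen in Cimicifugae Rhizoma. Without replicate 1 of 20 µg/mL 2 rose in Aconiti Lateralis Radix Preparata, and without replicate 2 of 20 µg/mL 2 rose in Cimicifugae Rhizoma.

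Hexokinases trap glucose as glucose 6-phosphate in the first step. HKDC1, the hexokinase domain gene (ENSG00000156510, chr10:69220303-69267559, plus strand), rose in all 6 extracts, as did GPI and ALDOA. The GPI call in Citri Unshius Pericarpium was lost without any of 5 libraries, at 0.11 to 0.15. HKDC1 had 67, 65.5 and 77.1 CPM at 500 µg/mL Aconiti Lateralis Radix Preparata, against 36.8, 33.6 and 35.6 CPM at 20 µg/mL (0.98 ± 0.051). In Citri Unshius Pericarpium, where few members moved, it had 35.5, 37.2 and 35.4 CPM at 500 µg/mL, against 27.2, 25.3 and 28 CPM at 20 µg/mL (0.42 ± 0.056, adjusted p = 1.32e-06, edgeR). Yijung-tang gave the smallest rise, 0.33 ± 0.054, with 38.7, 35.8 and 37.3 CPM at 500 µg/mL, against 31.6, 27.8 and 29.3 CPM at 20 µg/mL. HK2, the hexokinase typical of tumours, rose in 3 extracts only, by 0.57 in Banhasasim-tang, 0.37 in Aconiti Lateralis Radix Preparata and 0.28 in Bupleuri Radix. HK1, the housekeeping hexokinase of most other tissues, was scarce here. It had 2.11, 2.11 and 2.06 CPM at 500 µg/mL Aconiti Lateralis Radix Preparata, against 0.866, 0.848 and 0.856 CPM at 20 µg/mL (1.28 ± 0.28), which is 44 to 54 against 20 to 24 counts per library. It rose to a like extent in Cimicifugae Rhizoma (1.25 ± 0.28) and Bupleuri Radix (0.99 ± 0.29, lost at 0.85 without replicate 2 of 20 µg/mL), and gave 0.49 ± 0.28 in Banhasasim-tang (adjusted p = 0.264, edgeR).

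Phosphofructokinase commits sugar to glycolysis, and its 3 genes behaved differently. PFKP, the platelet type, rose in 5 extracts. It had 12.6, 14.4 and 13.5 CPM at 500 µg/mL Aconiti Lateralis Radix Preparata, against 6.19, 6.6 and 5.6 CPM at 20 µg/mL (1.13 ± 0.1). In Cimicifugae Rhizoma it had 10.4, 9.91 and 7.65 CPM at 500 µg/mL, against 4.39, 5.32 and 4.56 CPM at 20 µg/mL (0.97 ± 0.12). Bupleuri Radix raised it by 0.72, Banhasasim-tang by 0.53 and Citri Unshius Pericarpium by 0.52 on the log2 scale, and Yijung-tang gave -0.073 (adjusted p = 0.842, edgeR). PFKL, the liver type and by far the most abundant, passed the test in no extract, with log2 fold changes of -0.14 to 0.12 and an SE of 0.067 to 0.068. PFKM, the scarce muscle type, gave -0.26 to 0.32 with an SE of 0.2 to 0.21, and also passed in none.

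Among the later enzymes, which turn sugar phosphates to pyruvate and lactate, ALDOA alone passed in all 6 extracts. ALDOA, the main aldolase, had 1744, 1699 and 1807 CPM at 500 µg/mL Aconiti Lateralis Radix Preparata, against 1129, 1192 and 1229 CPM at 20 µg/mL (0.56 ± 0.041, adjusted p = 5.72e-16, edgeR). In Banhasasim-tang it had 1717, 1696 and 1726 CPM at 500 µg/mL, against 1171, 1274 and 1157 CPM at 20 µg/mL (0.52 ± 0.041). Its rise in Citri Unshius Pericarpium was 0.15 ± 0.041 (adjusted p = 0.0468, edgeR), and it missed the threshold without any 1 of the 6 libraries, at 0.13 to 0.16. ALDOC, the brain-type aldolase, rose most in Cimicifugae Rhizoma, with 31, 31.6 and 29.4 CPM at 500 µg/mL, against 19.3, 22 and 21.3 CPM at 20 µg/mL (0.55 ± 0.062), and Citri Unshius Pericarpium of the same set gave -0.15 ± 0.066. LDHA, which makes lactate, had 1380, 1425 and 1455 CPM at 500 µg/mL Banhasasim-tang, against 949.6, 1026 and 1044 CPM at 20 µg/mL (0.50 ± 0.043). PKM, which makes pyruvate, changed by 0.54 in Aconiti Lateralis Radix Preparata, 0.43 in Banhasasim-tang, 0.36 in Bupleuri Radix and 0.34 in Cimicifugae Rhizoma. ENO2, the neuronal enolase, stood out in Aconiti Lateralis Radix Preparata with 77, 81.1 and 83.8 CPM at 500 µg/mL, against 45.4, 49.8 and 50.2 CPM at 20 µg/mL (0.72 ± 0.045). The changes of GAPDH, PGK1, PGAM1, ENO1 and TPI1 were at most 0.32 in any extract. Processed pseudogenes named after these enzymes took 0.781% or less of their joint counts in every library.

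Among the HIF targets, CA9, a cell-surface enzyme that disposes of acid and is the classical marker of HIF activity, was scarce. It gave the largest change of these targets in any extract, in Aconiti Lateralis Radix Preparata, though not the largest within Cimicifugae Rhizoma. It had 2.57, 2.63 and 3.48 CPM at 500 µg/mL Aconiti Lateralis Radix Preparata, against 0.433, 0.443 and 0.499 CPM at 20 µg/mL, a log2 fold change of 2.63 ± 0.32 (adjusted p = 1.7e-09, edgeR). These are 55.2 to 75.5 against 9.7 to 14 expected counts per library. In Banhasasim-tang it had 2.2, 1.92 and 1.49 CPM at 500 µg/mL, against 0.502, 0.603 and 0.581 CPM at 20 µg/mL (1.72 ± 0.31). Bupleuri Radix gave 1.02, 1.57 and 1.5 CPM at 500 µg/mL, against 0.578, 0.425 and 0.859 CPM at 20 µg/mL (1.13 ± 0.32). In Cimicifugae Rhizoma it had 1.77, 1.77 and 1.79 CPM at 500 µg/mL, against an uneven 0.406, 1.74 and 0.953 CPM at 20 µg/mL (0.79 ± 0.31, adjusted p = 0.0343, edgeR). Leaving out any but the highest low-dose library ended this call, and the value was 0.40 without replicate 1 of 20 µg/mL and 1.38 without replicate 2, the highest. The call in Bupleuri Radix was lost without replicate 2 of 20 µg/mL, at 0.94. Its relative CA12, at 32 counts or fewer per library, rose in Aconiti Lateralis Radix Preparata (1.53 ± 0.33), Banhasasim-tang (1.33 ± 0.44) and Cimicifugae Rhizoma (1.17 ± 0.44). The CA12 calls in Banhasasim-tang and Cimicifugae Rhizoma were lost without any of 4 and of 3 libraries, with values down to 0.95 and 0.75.

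BHLHE40, a repressor that HIF and several other signals induce, had 49.7, 41.8 and 50.1 CPM at 500 µg/mL Aconiti Lateralis Radix Preparata, against 18.4, 19.6 and 19.8 CPM at 20 µg/mL (1.29 ± 0.089, adjusted p = 4.55e-17, edgeR). In Banhasasim-tang it had 35.4, 35.8 and 37.3 CPM at 500 µg/mL, against 21.2, 18.9 and 23 CPM at 20 µg/mL (0.79 ± 0.088). It rose by 0.67 in Bupleuri Radix and 0.58 in Cimicifugae Rhizoma on the log2 scale. In Citri Unshius Pericarpium it was lower at the high dose, with 20.6, 23.3 and 19 CPM at 500 µg/mL, against 27.3, 31.3 and 26.4 CPM at 20 µg/mL (-0.44 ± 0.094, adjusted p = 0.0038, edgeR), the only HIF target of the 14 that passed there. The call was lost without replicate 2 of 20 µg/mL (-0.36) or replicate 3 of 500 µg/mL (-0.37). Vehicle had 15.3, 22.8 and 22.5 CPM, below each of the 20 µg/mL libraries. With all 3 vehicle libraries, BHLHE40 at 500 µg/mL Citri Unshius Pericarpium did not pass against vehicle (0.057 ± 0.097, adjusted p = 0.729, edgeR). NDRG1, a stress-response gene strongly induced by low oxygen, moved more evenly than CA9. It had 75.7, 76 and 76.4 CPM at 500 µg/mL Aconiti Lateralis Radix Preparata, against 35.4, 34.8 and 33.8 CPM at 20 µg/mL (1.13 ± 0.068). Cimicifugae Rhizoma gave 80.2, 75.6 and 74.8 CPM at 500 µg/mL, against 37.5, 45.1 and 41 CPM at 20 µg/mL (0.90 ± 0.068). The rises in Bupleuri Radix and Banhasasim-tang were 0.78 and 0.76, whereas Citri Unshius Pericarpium and Yijung-tang gave 0.027 and 0.029, neither past the threshold.

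Other HIF targets encode enzymes that modify proteins. EGLN1 and EGLN3 are the oxygen sensors that mark HIF alpha for destruction, P4HA1 and P4HA2 hydroxylate collagen, LOX crosslinks it, and KDM3A demethylates histone H3. LOX had 38.2, 35.9 and 39.2 CPM at 500 µg/mL Banhasasim-tang, against 18.8, 18.3 and 20.1 CPM at 20 µg/mL (0.99 ± 0.077, adjusted p = 2.54e-14, edgeR). It rose by 0.56 in Aconiti Lateralis Radix Preparata and 0.36 in Bupleuri Radix, and Cimicifugae Rhizoma gave -0.18 (adjusted p = 0.0816, edgeR). EGLN3 had 1.29, 1.77 and 1.42 CPM at 500 µg/mL Aconiti Lateralis Radix Preparata, against 0.52, 0.59 and 0.713 CPM at 20 µg/mL (1.26 ± 0.23), from at most 44 counts in any library of the 500 and 20 µg/mL groups. It rose in Cimicifugae Rhizoma (0.75), where the groups overlapped, and in Banhasasim-tang (0.64). These calls were lost without replicate 3 of 20 µg/mL in Cimicifugae Rhizoma and without any of 4 libraries in Banhasasim-tang. EGLN1, P4HA2 and KDM3A each rose in the same 4 extracts, by 0.22 to 0.50. P4HA1 rose in 3 of these and gave -0.084 in Cimicifugae Rhizoma. The mitophagy receptor BNIP3 rose in these 4 extracts and in Yijung-tang (0.18 ± 0.054, adjusted p = 0.0443, edgeR, with overlapping groups). Counts of its 44 pseudogenes were at most 1.84% of the joint total, and those of the 1 EGLN3 pseudogene at most 8.33%, with a median of 0.

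The secreted factors were less uniform. VEGFA, the blood vessel growth factor, rose in Aconiti Lateralis Radix Preparata (0.46 ± 0.047) and Cimicifugae Rhizoma (0.15 ± 0.047, lost without any of 3 libraries), and gave 0.13 ± 0.047 in Banhasasim-tang (adjusted p = 0.0535, edgeR). ADM, the peptide adrenomedullin, rose at 500 against 20 µg/mL in Aconiti Lateralis Radix Preparata alone of the 6, with 9.98, 10.2 and 9.19 CPM at 500 µg/mL, against 5.93, 7.56 and 5.81 CPM at 20 µg/mL (0.60 ± 0.11). In Bupleuri Radix of the same set ADM gave -0.20 ± 0.11. ANKRD37 had log2 fold changes of 0.18 to 0.78 with an SE of 0.3 to 0.35 and passed in no extract at 500 against 20 µg/mL.

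Set side by side at 500 against 20 µg/mL, most glycolytic enzymes and most HIF targets rose in 4 extracts, and the median change of the enzymes was the smaller in each. The gap in Bupleuri Radix, however, was smaller than the replicate SD (0.046 for the enzymes and 0.049 for the HIF targets). That SD is for the difference between single libraries of both groups, from the variance of the class median within each group. It is not an SE of a mean of 3 libraries. In Aconiti Lateralis Radix Preparata 15 of 17 enzymes rose with a median log2 fold change of 0.36, and 13 of 14 HIF targets rose with a median of 0.58. In Banhasasim-tang these were 14 of 17 at 0.32 and 11 of 14 at 0.47, and in Bupleuri Radix 14 of 17 at 0.28 and 9 of 14 at 0.32. Cimicifugae Rhizoma gave 12 of 17 at 0.18 and 10 of 14 at 0.38. Against all 3 vehicle libraries the enzyme and HIF medians at 500 µg/mL were 0.44 and 0.68 in Aconiti Lateralis Radix Preparata. They were 0.39 and 0.44 in Banhasasim-tang, 0.26 and 0.27 in Bupleuri Radix and 0.35 and 0.40 in Cimicifugae Rhizoma. The replicate SD of the HIF targets was 0.1, 0.078, 0.058 and 0.11 in this order, so the last 3 gaps lay within it. At 500 against 20 µg/mL the enzyme median was the higher in the other extracts, but by less than the replicate SD of the HIF targets. That SD was 0.068 for Yijung-tang and 0.14 for Citri Unshius Pericarpium, so the order of the medians there is not settled. In Citri Unshius Pericarpium 4 of 17 enzymes rose and 0 fell (median 0.074), whereas 0 of 14 HIF targets rose and 1 fell (median -0.0088). Without replicate 1 of 20 µg/mL or replicate 3 of 500 µg/mL 1 enzyme rose in Citri Unshius Pericarpium, and without replicate 2 of either dose or replicate 3 of 20 µg/mL 2 rose. Yijung-tang had 4 of 17 enzymes risen (0.079) and 1 of 14 HIF targets (0.02), which was BNIP3 and was lost without any of 5 libraries. The classes differ in level, which is a limit of this comparison: among genes with a mean CPM of 1 or more the HIF median was 0.23 in Cimicifugae Rhizoma and 0.39 in Banhasasim-tang. No test of one class against the other was made.

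**Figure D3:**
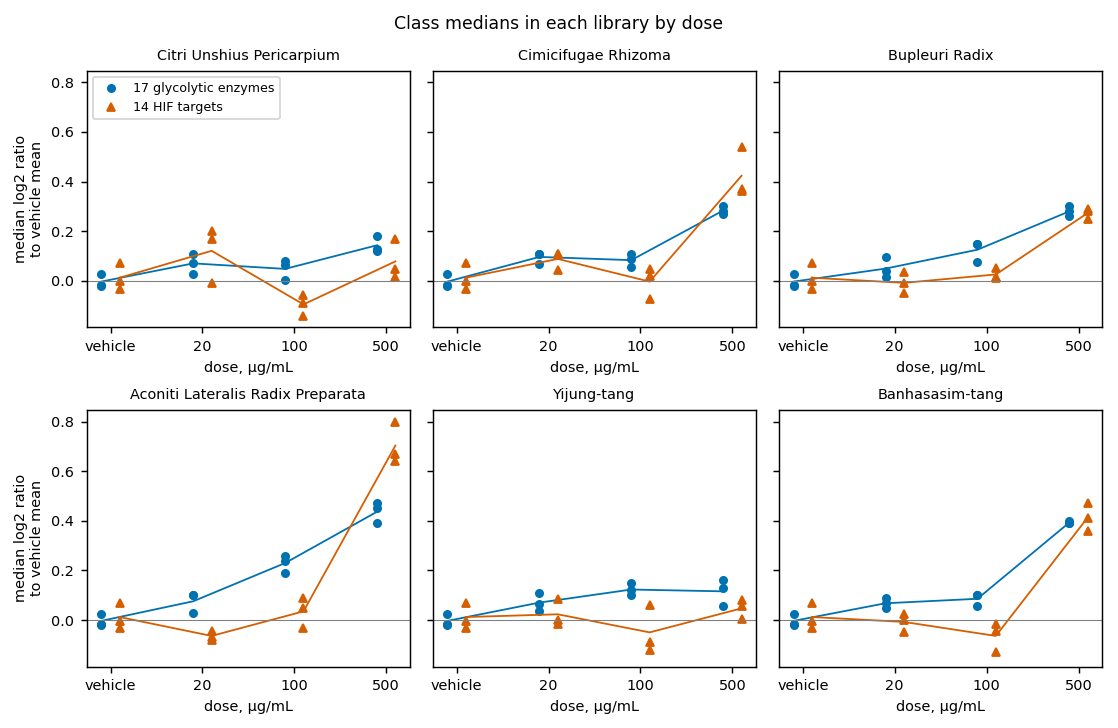
Median over the 17 glycolytic enzymes (circles) and the 14 HIF targets (triangles) of the log2 ratio to the vehicle mean (y axis, 0.1 CPM added to each value), for each library of vehicle and of 20, 100 and 500 µg/mL (x axis) of the 6 replicated extracts; lines join the means of 3 libraries. At 20 µg/mL Aconiti Lateralis Radix Preparata the enzymes lay at 0.028 to 0.10 and the HIF targets at -0.081 to -0.043. At 100 µg/mL the enzymes lay at 0.19 to 0.26 and the HIF targets at -0.033 to 0.09. At 500 µg/mL the enzymes lay at 0.39 to 0.47 and the HIF targets at 0.64 to 0.80. All 3 vehicle libraries enter the vehicle mean.

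At the middle dose the calls in Aconiti Lateralis Radix Preparata fell on the enzymes. At 100 against 20 µg/mL Aconiti Lateralis Radix Preparata 8 members passed the test, against 5.68% of all genes in either direction. Of these, 7 were glycolytic enzymes that rose and none was a HIF target. The median log2 fold change was nevertheless alike in both classes, 0.076 for the enzymes and 0.077 for the HIF targets. The calls therefore do not show that the enzymes as a class changed at a lower dose. HKDC1 rose by 0.56 ± 0.052 and PFKP by 0.41 ± 0.11, followed by HK2 (0.25), ENO2 (0.20), ALDOA (0.18), PKM (0.16) and ENO1 (0.13). SLC2A3 was the exception, at -0.25 ± 0.047, before its rise at 500 µg/mL. CA9 had 0.58, 0.687 and 0.548 CPM at 100 µg/mL, against 0.433, 0.443 and 0.499 CPM at 20 µg/mL, and did not pass (0.39 ± 0.39). Without replicate 1 of 20 µg/mL, 4 of the 8 passed.

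Cimicifugae Rhizoma at 100 against 20 µg/mL also moved 8 members, against 1.29% of all genes, but 7 of them fell. PFKFB3 changed by -0.73 ± 0.15, PFKFB4 by -0.52, LOX by -0.46, BHLHE40 by -0.42, PDK1 by -0.30, ALDOC by -0.27 and SLC2A3 by -0.25, and HKDC1 alone rose (0.34). BHLHE40 thus had 28.2, 30.4 and 27.5, then 19.7, 21.8 and 23, then 46.8, 41 and 41 CPM at 20, 100 and 500 µg/mL, a fall followed by a rise. Vehicle had 15.3, 22.8 and 22.5 CPM, so the fall began above vehicle and ended near it. In mean CPM at 20 µg/mL, 100 µg/mL and vehicle, PDK1 had 32.8, 26.6 and 25. PFKFB4 had 16.3, 11.4 and 11.4, and ALDOC 20.9, 17.3 and 16.3. LOX (24, 17.4 and 18.8), PFKFB3 (7.78, 4.7 and 6.48) and SLC2A3 (252, 213 and 228) ended with means below vehicle. For each of these genes, however, the 100 µg/mL and vehicle libraries overlapped, and set and treatment cannot be told apart there. Without replicate 2 of 20 µg/mL, or without replicate 1 of 100 µg/mL, 3 of the 8 passed. In Citri Unshius Pericarpium BHLHE40 was the single member that passed at this step (-0.54 ± 0.094, background 0.0249%), and in Yijung-tang SLC2A1 was (0.13 ± 0.033, background 1.24%). In Citri Unshius Pericarpium 0 passed without replicate 1 or 2 of 100 µg/mL or replicate 2 of 20 µg/mL, and 3 without replicate 1 of 20 µg/mL. In Yijung-tang 0 passed without replicate 1 or 2 of 100 µg/mL or replicate 1 of 20 µg/mL, and 2 without replicate 3 of 20 µg/mL. SLC2A1 in Yijung-tang had 653, 664 and 671, then 731, 733 and 718, then 526, 542 and 532 CPM at 20, 100 and 500 µg/mL, so it rose and then fell below its level at the lowest dose. No member passed in Bupleuri Radix (background 0.162%) or Banhasasim-tang (background 0.0124%) with edgeR.

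Against vehicle, the 500 µg/mL groups of the same 4 extracts again had most members raised. Banhasasim-tang had 31 risen and 0 fallen, Bupleuri Radix 29 and 0, Aconiti Lateralis Radix Preparata 28 and 0, and Cimicifugae Rhizoma 26 and 2 (edgeR, n = 3 each). Without vehicle replicate 2 these became 32 and 0, 26 and 0, 29 and 0, and 27 and 1. All backgrounds that follow are those of the fit with all 3 vehicle libraries, and none is given without replicate 2. The backgrounds were 18.6% risen and 16.2% fallen in Banhasasim-tang, 19% and 16.6% in Bupleuri Radix, 24.5% and 22.9% in Aconiti Lateralis Radix Preparata, and 23.5% and 22.3% in Cimicifugae Rhizoma. Citri Unshius Pericarpium had 13 risen and 1 fallen, against backgrounds of 12.7% and 9.78%, and 9 and 1 without that library. Yijung-tang had 12 risen and 4 fallen, against 17.5% and 15.1%, and 9 and 3 without it. In Cimicifugae Rhizoma 1 fell without replicate 2 of 500 µg/mL, in Citri Unshius Pericarpium 0 fell without replicate 3 of 500 µg/mL, and in Bupleuri Radix 1 fell without vehicle replicate 1.

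PFKP was the enzyme furthest above vehicle in Aconiti Lateralis Radix Preparata, with 12.6, 14.4 and 13.5 CPM at 500 µg/mL, against 4.33, 4.98 and 3.37 CPM in vehicle (1.67 ± 0.11, and 1.8 without vehicle replicate 2). HKDC1 had 67, 65.5 and 77.1 CPM there, against 27.4, 26.7 and 25.4 CPM in vehicle (1.40 ± 0.054, and 1.40 without vehicle replicate 2), and it rose against vehicle in all 6 extracts. GPI, ALDOA, GAPDH, ENO1 and PKM also rose in all 6, and without vehicle replicate 2 the 1 call lost among these 6 genes was PKM in Yijung-tang (0.088, adjusted p = 0.131, edgeR). ALDOA was 0.80 in Aconiti Lateralis Radix Preparata and 0.35 in Citri Unshius Pericarpium, and 0.77 and 0.32 without that library. SLC2A1 was -0.12 ± 0.033 on the log2 scale in Yijung-tang and SLC2A3 -0.44 ± 0.047, both below vehicle, and -0.15 and -0.47 without vehicle replicate 2. HK1 turned on the doubtful library. Its vehicle values were 0.685, 2.97 and 1.4 CPM, the highest of them in replicate 2. With all 3 vehicle libraries HK1 fell in Citri Unshius Pericarpium (-1.07) and Yijung-tang (-1.28), and without replicate 2 these were -0.38 (adjusted p = 0.42) and -0.59 (adjusted p = 0.141, edgeR). Conversely, HK1 at 500 µg/mL Cimicifugae Rhizoma gave 0.52 with all 3 and 1.20 without it (adjusted p = 0.000174, edgeR).

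Some members that did not pass, or passed in few extracts, between the doses did pass against vehicle. ANKRD37 rose against vehicle at 500 µg/mL in 5 extracts, by 1.34 in Aconiti Lateralis Radix Preparata, 1.25 in Banhasasim-tang, 1.23 in Cimicifugae Rhizoma, 0.99 in Bupleuri Radix and 0.96 in Citri Unshius Pericarpium. Without vehicle replicate 2 the calls in Bupleuri Radix (1.01, adjusted p = 0.0539) and Citri Unshius Pericarpium (0.97, adjusted p = 0.096, edgeR) were lost. ADM rose by 0.89 in Aconiti Lateralis Radix Preparata and by 0.33 to 0.47 in the other extracts except Bupleuri Radix (0.056), and these 5 calls held without that library, at 0.36 to 0.92. VEGFA rose in all but Citri Unshius Pericarpium, by 0.27 to 0.66, and by 0.22 to 0.61 without it. PFKL, the liver phosphofructokinase, rose in Banhasasim-tang (0.35), Yijung-tang (0.32), Citri Unshius Pericarpium (0.23) and Bupleuri Radix (0.21). Without vehicle replicate 2 the PFKL calls in Citri Unshius Pericarpium (0.21) and Bupleuri Radix (0.19) were lost.

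At the lowest dose the shares of members that differed from vehicle lay closer to the background. At 20 µg/mL, 14 members passed in Cimicifugae Rhizoma, 13 in Aconiti Lateralis Radix Preparata, 12 in Yijung-tang, 10 in Citri Unshius Pericarpium, 8 in Bupleuri Radix and 8 in Banhasasim-tang, in either direction of the 36. The backgrounds were 19%, 31.2%, 27.2%, 19.3%, 21.9% and 28.4% of all genes. Without vehicle replicate 2 the members passing numbered 7, 11, 9, 5, 2 and 5. The backgrounds above hold for the fit with all libraries, and none is given for fits with a library left out. Leaving out another library also mattered: 6 passed in Cimicifugae Rhizoma without its replicate 2, 5 in Citri Unshius Pericarpium without its replicate 2 and 6 without vehicle replicate 1, 5 in Bupleuri Radix without its replicate 3 and 4 in Banhasasim-tang without its replicate 1. LDHA and BNIP3 were among the members below vehicle, at -0.17 and -0.19 in Yijung-tang, whereas ALDOA was above it in every extract, by 0.16 to 0.26. Without vehicle replicate 2 LDHA and BNIP3 were both at -0.20 in Yijung-tang, and ALDOA rose by 0.14 to 0.23 in the 6 extracts.

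Extracts of a set could be set against each other through the difference of their dose effects, tested as an interaction in the same edgeR model. Between Banhasasim-tang and Yijung-tang the effect was higher in Banhasasim-tang for 24 members and lower for 0, against 7.07% and 5.03% of all genes. Of those that passed, CA9 differed most (1.52 ± 0.5), and the switch PDK1 (0.83 ± 0.095, adjusted p = 4.45e-09, edgeR) and the carrier SLC2A3 (0.91 ± 0.066, adjusted p = 6.48e-15, edgeR) were among the others. Between Cimicifugae Rhizoma and Citri Unshius Pericarpium it was higher in Cimicifugae Rhizoma for 13 members and lower for 2, against 13.5% and 14.7%. SLC2A1 (1.04 ± 0.047) was among the higher ones, and SLC2A3 (-0.41 ± 0.066) and PFKFB3 (-0.67 ± 0.21) were the lower ones, of which 1 passed without replicate 2 of 500 µg/mL Citri Unshius Pericarpium, or of 500 or 20 µg/mL Cimicifugae Rhizoma. Between Aconiti Lateralis Radix Preparata and Bupleuri Radix, which both raised most members, it was higher in Aconiti Lateralis Radix Preparata for 9 and lower for 0, against 5.19% and 4.98%. These 9 were SLC2A1, HKDC1, ENO2, PKM, CA9, VEGFA, ADM, NDRG1 and BHLHE40, with ENO2 at 0.67 ± 0.064 and ADM at 0.80 ± 0.16. The other 27 members did not pass, which does not show that both extracts act alike on them.

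**Figure D4:**
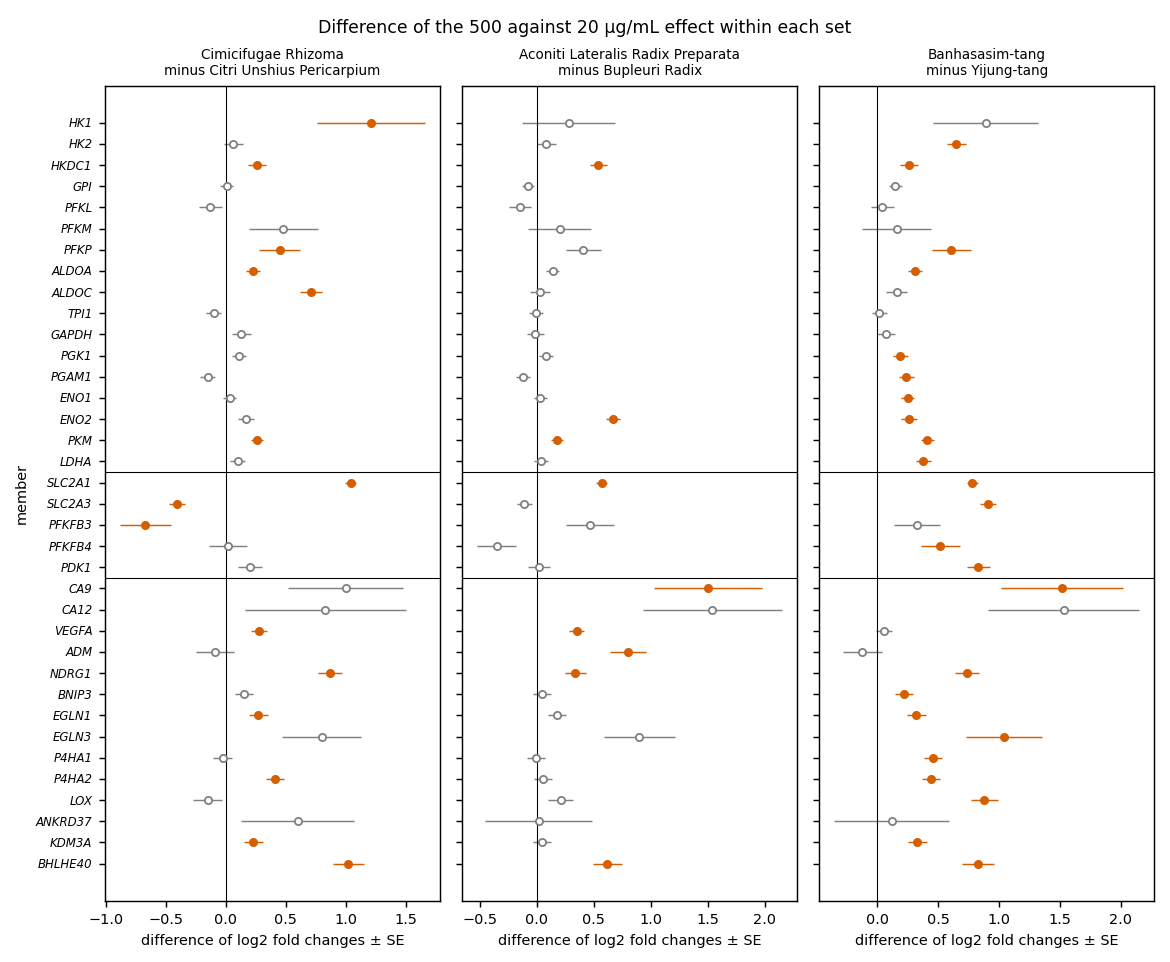
Difference of the 500 against 20 µg/mL log2 fold changes (x axes, ± SE) between both extracts of each set for the 36 members (rows); filled orange points passed at an adjusted p under 0.05. All 24 filled points of Banhasasim-tang minus Yijung-tang lie right of 0, whereas SLC2A3 and PFKFB3 lie left of 0 in Cimicifugae Rhizoma minus Citri Unshius Pericarpium.

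Counts per exon length give an approximate share of each gene in the RNA of its family, and these shares are described without a test. The length is that of all annotated exons of a gene joined, not that of the transcripts expressed. Genes are thus compared only roughly within a library, whereas the same lengths were used at every dose. Among hexokinase genes HKDC1 made up 40.8 ± 1.6% at 500 µg/mL Aconiti Lateralis Radix Preparata, against 31.3 ± 0.803% at 20 µg/mL (SD, n = 3 each), and HK2 58.3 ± 1.54% against 68.1 ± 0.82%. In Cimicifugae Rhizoma HKDC1 made up 36.1 ± 0.818% at 500 µg/mL, against 26.5 ± 1.11% at 20 µg/mL, while in Banhasasim-tang, which raised HK2 as well, it was 26.3 ± 0.733% against 26.1 ± 1.01%. Glucokinase, the hexokinase of healthy hepatocytes, made up 0.0975% or less in any library. PFKP was 14.1 ± 1.23% of phosphofructokinase RNA at 500 µg/mL Aconiti Lateralis Radix Preparata, against 6.34 ± 0.53% at 20 µg/mL, with PFKL at 84.6 ± 1.25% against 92.6 ± 0.539%. SLC2A1 was 85.7 ± 0.654% of carrier RNA at 500 µg/mL Cimicifugae Rhizoma, against 70.1 ± 0.176% at 20 µg/mL, and SLC2A3 10.2 ± 0.712% against 21.9 ± 0.582%. SLC2A2, the liver carrier GLUT2, was 3.24 ± 0.209% at 500 µg/mL Aconiti Lateralis Radix Preparata, against 7.83 ± 0.476% at 20 µg/mL. PDK1 was 30.2 ± 0.335% of pyruvate dehydrogenase kinase RNA at 500 µg/mL Aconiti Lateralis Radix Preparata and 30.2 ± 0.5% at 500 µg/mL Banhasasim-tang. The shares of the main aldolase and pyruvate kinase genes varied little, with ALDOA at 97.3 to 98.3% of aldolase RNA and PKM at 94.1 to 97% of pyruvate kinase RNA.

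**Figure D5:**
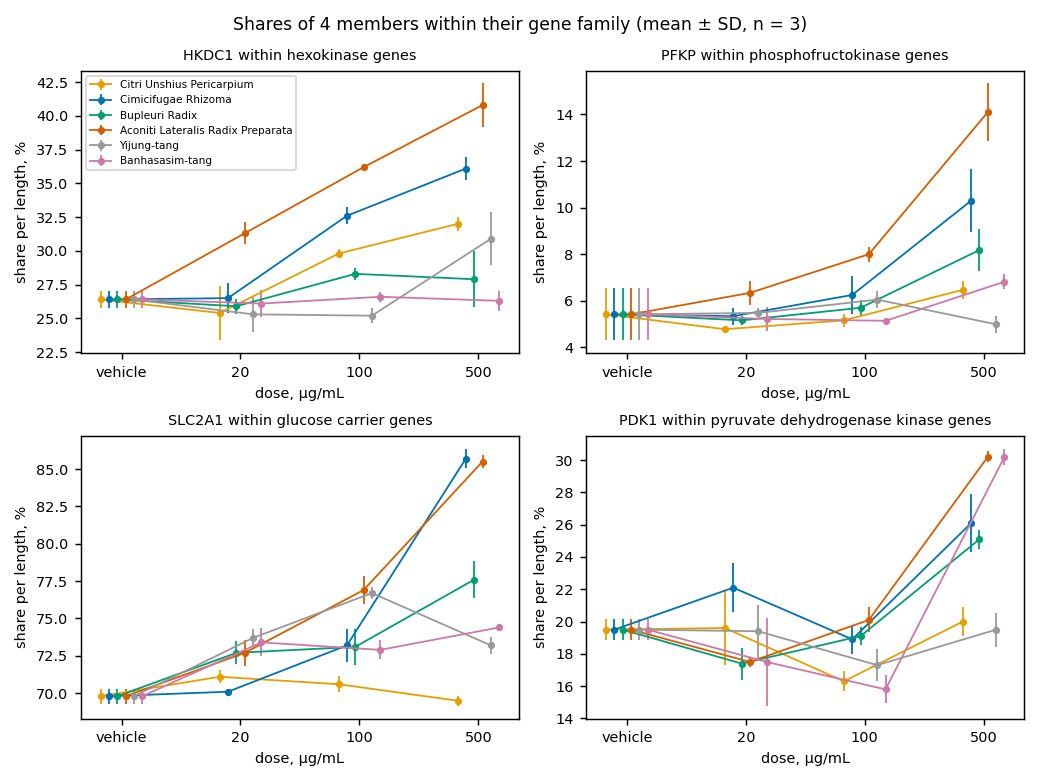
Share of HKDC1, PFKP, SLC2A1 and PDK1 in the RNA of their gene family per exon length (y axes, %, not starting at 0), for vehicle and 20, 100 and 500 µg/mL (x axes) of 6 extracts; points are means and bars SD of 3 libraries. HKDC1 reached 40.8% at 500 µg/mL Aconiti Lateralis Radix Preparata and stayed at 26.3% in Banhasasim-tang, whereas PDK1 reached 30.2% in each of these.

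Genes of glycolysis outside the 36 did not rise as a block. Of 12 tested genes for other glycolytic isozymes and carriers, 4 rose and 5 fell in Aconiti Lateralis Radix Preparata, 2 rose and 5 fell in Cimicifugae Rhizoma, 1 rose and 2 fell in Bupleuri Radix, 1 rose and 2 fell in Banhasasim-tang, and none passed in Citri Unshius Pericarpium or Yijung-tang (edgeR, 500 against 20 µg/mL). Of all genes 19.2% rose and 18.1% fell, 19.5% and 19.7%, 9.9% and 8.89%, and 8.59% and 6.52% in the first 4 of these. The muscle enolase ENO3 fell in these 4 extracts in the same order, at -0.77 ± 0.07, -0.63 ± 0.07, -0.28 ± 0.065 and -0.39 ± 0.064 on the log2 scale. PGM1, which links glycogen to glycolysis, was at -0.29 ± 0.039 and SLC2A2 at -0.36 ± 0.057 in Aconiti Lateralis Radix Preparata. The median of these 12 genes was -0.31 in Aconiti Lateralis Radix Preparata, -0.20 in Cimicifugae Rhizoma, -0.063 in Banhasasim-tang, -0.03 in Citri Unshius Pericarpium, 0.016 in Bupleuri Radix and 0.048 in Yijung-tang.

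Genes of the HIF machinery moved in both directions, as genes at large did. Of 13 genes tested, HIF1A, which encodes the main alpha subunit, rose in Aconiti Lateralis Radix Preparata (0.11 ± 0.036), Bupleuri Radix (0.18 ± 0.036) and Cimicifugae Rhizoma (0.29 ± 0.036). EPAS1, which encodes HIF-2 alpha, fell in Cimicifugae Rhizoma (-0.36 ± 0.044) and Bupleuri Radix (-0.27 ± 0.044) and rose in Banhasasim-tang (0.16 ± 0.043). VHL fell in Cimicifugae Rhizoma, Aconiti Lateralis Radix Preparata and Bupleuri Radix by 0.19 to 0.25. In all, 1 rose and 4 fell in Aconiti Lateralis Radix Preparata, 1 and 3 in Cimicifugae Rhizoma and 1 and 3 in Bupleuri Radix. Banhasasim-tang had 2 and 0, Yijung-tang 0 and 1 and Citri Unshius Pericarpium 0 and 0. Of all genes, 19.2% rose and 18.1% fell in Aconiti Lateralis Radix Preparata, 19.5% and 19.7% in Cimicifugae Rhizoma and 9.9% and 8.89% in Bupleuri Radix. These shares were 8.59% and 6.52% in Banhasasim-tang, 1.65% and 2.12% in Yijung-tang and 0.727% and 0.92% in Citri Unshius Pericarpium. No test of this list against all genes was made. HIF is controlled mainly through its protein, which was not measured here.

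A second list of 28 HIF targets, 27 of them tested, gave 16 risen and 2 fallen in Aconiti Lateralis Radix Preparata, 14 and 0 in Bupleuri Radix, 14 and 2 in Banhasasim-tang, 13 and 4 in Cimicifugae Rhizoma, 1 and 1 in Citri Unshius Pericarpium, and 0 and 0 in Yijung-tang. In the same order, the shares of all genes were 19.2% risen and 18.1% fallen, 9.9% and 8.89%, and 8.59% and 6.52%. They were 19.5% and 19.7%, 0.727% and 0.92%, and 1.65% and 2.12% in the last 3. PLIN2, a coat protein of lipid droplets, rose by 1.27 ± 0.041 in Aconiti Lateralis Radix Preparata, and PLOD2, a collagen lysyl hydroxylase, by 0.69 ± 0.046 in Bupleuri Radix. PPP1R3C, a glycogen-targeting phosphatase subunit named here after its values were seen, fell in Cimicifugae Rhizoma (-0.86 ± 0.096). Of 6 tested genes of gluconeogenesis, which opposes glycolysis, 3 rose and 1 fell in Aconiti Lateralis Radix Preparata, 3 and 1 in Cimicifugae Rhizoma, 2 and 2 in Bupleuri Radix, 1 and 2 in Banhasasim-tang, 0 and 1 in Citri Unshius Pericarpium and 0 and 0 in Yijung-tang. The shares of all genes in each extract are those given for the second list. G6PC1, the last enzyme of gluconeogenesis, rose in 4 extracts, by 2.38 ± 0.14 in Cimicifugae Rhizoma, 1.38 ± 0.15 in Bupleuri Radix, 0.75 ± 0.17 in Aconiti Lateralis Radix Preparata and 0.64 ± 0.16 in Banhasasim-tang. Of 15 tested genes of pyruvate and lactate handling, 1 rose and 5 fell in Cimicifugae Rhizoma, 1 and 4 in Aconiti Lateralis Radix Preparata, 1 and 2 in Bupleuri Radix, 2 and 2 in Banhasasim-tang, 1 and 1 in Yijung-tang and 0 and 0 in Citri Unshius Pericarpium, against 19.7% and 18.1% of all genes that fell in Cimicifugae Rhizoma and Aconiti Lateralis Radix Preparata. For the other extracts the shares of all genes are again those given for the second list. The fallen included both subunits of the mitochondrial pyruvate carrier, MPC1 (-0.59 ± 0.066) and MPC2 (-0.44 ± 0.072) in Aconiti Lateralis Radix Preparata.

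Other gene groups moved in the same libraries. Of all genes 19.2% rose and 18.1% fell in Aconiti Lateralis Radix Preparata, and 19.5% and 19.7% in Cimicifugae Rhizoma, at 500 against 20 µg/mL. The shares in the other extracts are those given for the second list of HIF targets. Of 11 housekeeping genes, 3 rose and 3 fell in Aconiti Lateralis Radix Preparata, with a median of 0.0064, and 2 rose and 3 fell in Cimicifugae Rhizoma. Of 10 hepatocyte markers, 7 fell in Aconiti Lateralis Radix Preparata (median -0.18) and 6 fell and 1 rose in Cimicifugae Rhizoma (median -0.14). Of 9 tested genes on mitochondrial or nuclear-retained RNA, taken as signs of RNA quality, 7 rose in Aconiti Lateralis Radix Preparata (median 0.63, led by the ribosomal MT-RNR1 at 2.77 ± 0.063), 5 in Cimicifugae Rhizoma (median 0.37), 2 in Bupleuri Radix, 2 in Banhasasim-tang, 2 in Yijung-tang and 1 in Citri Unshius Pericarpium, and 0 fell in any of the 6. With the genes of mitochondrial DNA left out before scaling, 14 of 17 glycolytic enzymes rose in Aconiti Lateralis Radix Preparata with a median of 0.35 and 13 of 14 HIF targets with a median of 0.58. The part of the hepatocyte markers and of the nuclear-retained RNA in these results was not tested.

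Bojungikgi-tang had 1 library per dose, so its values carry no test. Its 20, 100 and 500 µg/mL libraries had 603, 583 and 630 CPM of SLC2A1, 1076, 1164 and 1308 CPM of ALDOA, and 27.7, 29.2 and 32.9 CPM of HKDC1. The 500 µg/mL library lay above all 3 vehicle libraries for ALDOA (986, 978 and 1054 CPM in vehicle) and HKDC1 (27.4, 26.7 and 25.4 CPM). CA9 was at 0.646, 0.757 and 0.701 CPM, and BHLHE40 at 17.1, 18.5 and 17.8 CPM. The median log2 ratio to the mean of all 3 vehicle libraries over the glycolytic enzymes was 0.038, 0.1 and 0.15 at the rising doses, and over the HIF targets it was -0.06, -0.039 and 0.088.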

How the data were processed

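Messenger RNA libraries were made from 60 samples of HepG2 cells with a directional kit, per the labels' protocols. Per the submitters' processing notes, the tools were FastQC 0.11.9, Trim Galore 0.6.5, STAR 2.7.3a and RSEM 1.3.3 with GRCh38; the annotation release is not given in the sources used here. The deposited table holds the authors' RSEM expected counts, of which 24.5% of nonzero values are not whole, and 207 of its other columns were not used. After rounding, the quasi-likelihood test of edgeR 4.0.16 (R 4.3.3) was run in 1 model of 57 libraries and 19 groups. The fit used TMM factors of 0.898 to 1.04, filterByExpr and Benjamini-Hochberg adjustment over 16093 genes, with calls at an adjusted p under 0.05. CPM are counts scaled by library size and TMM factor, and the common biological coefficient of variation was 4.86%. The SE comes from each gene's fold change and F statistic. Symbols come from GENCODE 29, which lists 57055 of the genes, and the rest hold 0.0398% of counts. The members, classes and gene lists were chosen with earlier results of these data known. The members described in full are the 3 called members with the largest change of their class in an extract, and those whose called direction differs between extracts. From other lists the 3 called genes with the smallest p may be named. Alternatives included DESeq2 1.42.0, median-ratio scaling, other filters, a replicate block, own libraries only, removal of a GC trend, and leaving out each library. The fit was tested on simulated data. The series description names another DMSO share and a wortmannin control, which was not analysed here, and doses and vehicle follow the sample labels. A gene of the second list of HIF targets is not reported here by name.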

Additional observations from a re-analysis of the deposited data

Results flagged for a closer look

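The following members were picked out because the 500 against 20 µg/mL effect differed between both extracts of a set in the interaction test of the edgeR model (adjusted p under 0.05), the 5 with the largest difference in each set. For Cimicifugae Rhizoma minus Citri Unshius Pericarpium the differences of log2 fold changes were 1.21 for HK1, 1.04 for SLC2A1, 1.02 for BHLHE40, 0.87 for NDRG1 and 0.71 for ALDOC. HK1 had 2.20, 2.56 and 2.44 CPM at 500 µg/mL, against 1.02, 1.12 and 0.87 CPM at 20 µg/mL Cimicifugae Rhizoma. BHLHE40 combines a rise in Cimicifugae Rhizoma with a fall in Citri Unshius Pericarpium.

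For Aconiti Lateralis Radix Preparata minus Bupleuri Radix they were 1.5 for CA9, 0.80 for ADM, 0.67 for ENO2, 0.62 for BHLHE40 and 0.57 for SLC2A1. ENO2 and ADM rose in Aconiti Lateralis Radix Preparata, and neither passed the test in Bupleuri Radix.

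For Banhasasim-tang minus Yijung-tang they were 1.52 for CA9, 1.04 for EGLN3, 0.91 for SLC2A3, 0.88 for LOX and 0.83 for PDK1. SLC2A3 rose in Banhasasim-tang and fell in Yijung-tang. CA9 and EGLN3 have low counts in every group, and their standard errors were 0.5 and 0.31.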

How the results depend on the processing

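Of 126 single-member calls at 500 against 20 µg/mL, 0 changed sign under any alternative, and 24 missed the threshold at least once when 1 library was left out (71 of 756 such refits). The replicate block kept 126 of 126 calls, both with a number shared by all sets and within a set. Same-numbered 500 and 20 µg/mL libraries correlated at -0.16 to 0.44 across genes and others at -0.49 to 0.34. Every same-numbered pair was positive for Cimicifugae Rhizoma (lowest 0.031), Bupleuri Radix (0.09), Banhasasim-tang (0.078) and Aconiti Lateralis Radix Preparata (0.11). The lowest value was negative for Yijung-tang (-0.16) and for Citri Unshius Pericarpium (-0.024). Whether equal numbers mark paired samples was not tested, and the main model does not pair them. Counts of members passing at 100 against 20 µg/mL did change with the block, as given below. Own libraries alone ended 11 calls, no filter 9, DESeq2 3 (1 more had no adjusted p), and median-ratio scaling, removal of mitochondrial genes and removal of the GC trend 1 each. The alternatives for 100 against 20 µg/mL, for 20 µg/mL against vehicle and for differences between extracts were chosen after seeing the data. The form in which counts and medians are summarised here was chosen after the values were seen; the cause of the shifts was not tested.

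Enzymes risen at 500 against 20 µg/mL numbered 2 without a filter or with own libraries only in Citri Unshius Pericarpium (4 as reported) and 2 with own libraries in Yijung-tang (4), where the HIF target was lost (0). With the GC trend removed, 4 enzymes rose against vehicle in Yijung-tang (9), and enzyme medians against vehicle were 0.38 in Aconiti Lateralis Radix Preparata (0.44), 0.34 in Banhasasim-tang (0.39) and 0.26 in Cimicifugae Rhizoma (0.35). Counting the carriers with the enzymes gave 0.44 in Banhasasim-tang (0.32). A mean CPM of 1 or more gave HIF medians of 0.39 at 500 against 20 µg/mL and 0.34 against vehicle in Banhasasim-tang (0.47 and 0.44), and 0.23 in Cimicifugae Rhizoma (0.38). At 20 µg/mL against vehicle 3 members passed with the GC trend removed in Banhasasim-tang (8), and 3, or 4 with own libraries, in Bupleuri Radix (8). At 100 against 20 µg/mL Citri Unshius Pericarpium had 5 without a filter, 3 with DESeq2, 3 with the block within a set, 2 without the GC trend and 0 with own libraries (1), and Yijung-tang 3 without a filter, 3 at a mean CPM of 1, 4 with DESeq2, 2 and 5 with the replicate block, 2 without the GC trend and 0 with own libraries (1). Members fallen numbered 1 in Aconiti Lateralis Radix Preparata at 500 against 20 µg/mL without a filter, with the block within a set, without the GC trend or with own libraries (0), and 1 against vehicle without the GC trend (0). They numbered 4 in Cimicifugae Rhizoma against vehicle without the GC trend (2), 1 in Citri Unshius Pericarpium at 500 against 20 µg/mL without a filter (2), and against vehicle 2 with the block within a set, 2 without the GC trend and 0 with own libraries (1).

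With 1 library left out, ranges were as follows. Enzymes risen at 500 against 20 µg/mL in Citri Unshius Pericarpium ran from 1 to 3. Enzyme medians ran from 0.30 to 0.35 in Banhasasim-tang and from 0.15 to 0.20 in Cimicifugae Rhizoma at 500 against 20 µg/mL, and against vehicle from 0.24 to 0.30 in Bupleuri Radix, 0.26 to 0.35 in Cimicifugae Rhizoma and 0.13 to 0.18 in Citri Unshius Pericarpium. HIF medians ran from 0.40 to 0.54 in Banhasasim-tang at 500 against 20 µg/mL and from -0.031 to 0.081 in Yijung-tang against vehicle. HIF targets risen ran from 0 to 1 at 500 against 20 µg/mL and 1 to 3 against vehicle in Yijung-tang, and 1 to 5 against vehicle in Citri Unshius Pericarpium, with 1 without vehicle replicate 1 or 2. Members passing at 100 against 20 µg/mL ran from 4 to 7 in Aconiti Lateralis Radix Preparata, 3 to 8 in Cimicifugae Rhizoma, 0 to 3 in Citri Unshius Pericarpium and 0 to 2 in Yijung-tang, and at 20 µg/mL against vehicle from 4 to 8 in Banhasasim-tang, 2 to 7 in Bupleuri Radix, 6 to 13 in Cimicifugae Rhizoma and 5 to 14 in Citri Unshius Pericarpium. Members fallen ran from 0 to 1 in Aconiti Lateralis Radix Preparata and Bupleuri Radix and 0 to 2 in Citri Unshius Pericarpium at 500 against 20 µg/mL, and against vehicle from 0 to 1 in Bupleuri Radix, 1 to 2 in Cimicifugae Rhizoma and 0 to 1 in Citri Unshius Pericarpium. The members lower in Cimicifugae Rhizoma than in Citri Unshius Pericarpium ran from 1 to 3. Low counts limit the precision of CA9, CA12, EGLN3, HK1 and ANKRD37.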
